A study of Mus musculus with 2 samples.

Results

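POU3F1 peaks close to a gene's transcription start site (TSS) made up 312 of the 2652 intervals in the authors' deposited peak list, 11.8% of it. They were chosen by position alone: a gene and a peak formed a pair where the deposited gene table put the peak's midpoint at most 5000 bp from the TSS of that gene. This gave 395 pairs with 332 gene names, out of 4427 pairs with 2323 names in the whole table. Of the 395 pairs, 383 were placed on an interval without a rival, 7 had a rival placement, and 5 pairs of 5 predicted genes (Gm10308, Gm10720, Gm10722, Gm28635 and Gm9945) were not placed. The intervals come from CUT&RUN, in which an antibody directs a nuclease to cut the DNA around its target so that the released fragments can be sequenced. The tissue was mouse retina, taken on embryonic day 14 from CD1 animals with no engineered allele (WT), and its chromatin was profiled in 1 library with an antibody against POU3F1 and 1 library with rabbit IgG, the background control. With 1 library for each antibody and 1 peak list there was no replicate check, no test was possible, and all intervals given for shares are exact (Clopper-Pearson) 95% intervals that cover counting error only. The IgG track was not analysed here.

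POU3F1, also called OCT6, is a transcription factor that holds DNA with a POU-specific domain and a homeodomain. Factors of this family recognise the octamer ATGCAAAT and related AT-rich words, and a promoter carrying it can be read by several POU proteins, POU2F1 (OCT1) among them. In the embryonic retina, dividing progenitors leave the cell cycle and become neurons, the ganglion cells among the earliest. A promoter is the stretch of DNA around a TSS where RNA polymerase II is loaded, and a divergent promoter serves a pair of genes that are transcribed away from each other.

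Promoter sequences are shown for the members that carry the description below. Each runs 5′ to 3′ on the strand of its gene and covers the 250 bases before the RefSeq start (GRCm38.p6, the assembly also called mm10). Capitals mark the octamer, written ATGCAAAT where it lies on the gene's own strand and ATTTGCAT where it lies on the other. The first 6 are those of highest fold among the 20 strongest intervals whose promoter held an octamer, where the RefSeq start lay within 100 bp of the TSS implied by the gene table.
Plppr2, chr9:21936760-21937009, plus strand: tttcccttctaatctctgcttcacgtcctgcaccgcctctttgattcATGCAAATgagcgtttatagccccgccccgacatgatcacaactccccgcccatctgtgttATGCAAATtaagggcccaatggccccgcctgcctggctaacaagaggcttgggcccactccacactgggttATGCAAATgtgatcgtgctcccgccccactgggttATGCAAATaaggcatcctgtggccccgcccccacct
Prrc2a, chr17:35164878-35165127, minus strand: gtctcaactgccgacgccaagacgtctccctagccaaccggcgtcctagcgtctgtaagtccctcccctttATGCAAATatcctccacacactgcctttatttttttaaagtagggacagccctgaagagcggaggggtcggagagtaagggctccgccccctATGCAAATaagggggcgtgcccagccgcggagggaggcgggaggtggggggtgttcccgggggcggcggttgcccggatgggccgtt
Gadd45a, chr6:67037408-67037657, minus strand: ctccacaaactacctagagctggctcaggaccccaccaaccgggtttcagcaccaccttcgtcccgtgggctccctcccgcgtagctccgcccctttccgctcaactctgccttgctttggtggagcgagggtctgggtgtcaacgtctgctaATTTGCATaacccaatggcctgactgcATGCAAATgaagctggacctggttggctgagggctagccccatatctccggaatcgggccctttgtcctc
Cables2, chr2:180273466-180273715, minus strand: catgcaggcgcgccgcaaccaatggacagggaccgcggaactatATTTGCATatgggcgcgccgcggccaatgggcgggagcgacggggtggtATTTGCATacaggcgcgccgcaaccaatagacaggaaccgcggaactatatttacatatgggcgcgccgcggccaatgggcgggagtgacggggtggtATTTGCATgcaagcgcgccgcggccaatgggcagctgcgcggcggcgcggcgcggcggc
Zfp428, chr7:24506837-24507086, plus strand: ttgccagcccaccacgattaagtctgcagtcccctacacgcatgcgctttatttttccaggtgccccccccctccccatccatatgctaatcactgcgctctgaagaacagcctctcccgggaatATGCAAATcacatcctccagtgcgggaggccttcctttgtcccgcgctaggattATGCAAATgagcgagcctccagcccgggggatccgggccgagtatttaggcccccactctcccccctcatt
Wwc2, chr8:47990545-47990794, minus strand: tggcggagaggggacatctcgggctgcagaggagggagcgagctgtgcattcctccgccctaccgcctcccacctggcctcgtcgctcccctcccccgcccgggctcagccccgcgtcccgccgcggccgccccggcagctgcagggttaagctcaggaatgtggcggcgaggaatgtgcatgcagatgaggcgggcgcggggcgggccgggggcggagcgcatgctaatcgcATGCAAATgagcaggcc

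Plppr2 held 4 octamers in these bases, Cables2 held 3, Prrc2a, Gadd45a and Zfp428 held 2 each, and Wwc2 held 1. Crlf2 and Pank4, 2 of the strongest intervals, are shown because their promoter windows, defined below, held none. Both summits lie outside those windows, so the sequence at the summits was not searched.
Crlf2, chr5:109558994-109559243, minus strand: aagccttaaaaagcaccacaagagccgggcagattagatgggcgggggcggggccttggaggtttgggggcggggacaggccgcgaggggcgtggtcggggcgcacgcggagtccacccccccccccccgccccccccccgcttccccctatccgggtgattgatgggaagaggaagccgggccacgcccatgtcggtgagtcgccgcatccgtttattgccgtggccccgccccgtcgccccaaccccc
Pank4, chr4:154963873-154964122, plus strand: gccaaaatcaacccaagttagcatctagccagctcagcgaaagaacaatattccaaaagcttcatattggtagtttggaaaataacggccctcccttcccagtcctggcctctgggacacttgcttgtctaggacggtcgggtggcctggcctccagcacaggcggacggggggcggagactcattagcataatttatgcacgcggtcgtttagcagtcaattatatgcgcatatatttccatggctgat

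Neurog1, Dll1 and Hist1h2bg are shown for a proneural gene, a Notch ligand gene and a divergent histone promoter; these 3 were picked after their values were seen. The RefSeq start of Dll1 lay 152 bp from the start implied by the gene table.
Neurog1, chr13:56252181-56252430, minus strand: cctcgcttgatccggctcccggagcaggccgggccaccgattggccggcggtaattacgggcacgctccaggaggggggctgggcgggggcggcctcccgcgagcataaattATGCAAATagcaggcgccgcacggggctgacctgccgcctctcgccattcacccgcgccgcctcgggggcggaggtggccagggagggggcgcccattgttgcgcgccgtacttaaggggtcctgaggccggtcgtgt
Dll1, chr17:15375824-15376073, minus strand: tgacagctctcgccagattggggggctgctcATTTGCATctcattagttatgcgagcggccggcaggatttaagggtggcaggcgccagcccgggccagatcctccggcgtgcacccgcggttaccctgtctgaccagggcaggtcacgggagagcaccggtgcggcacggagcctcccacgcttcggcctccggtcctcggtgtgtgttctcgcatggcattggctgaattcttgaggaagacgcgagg
Hist1h2bg, chr13:23571150-23571399, plus strand: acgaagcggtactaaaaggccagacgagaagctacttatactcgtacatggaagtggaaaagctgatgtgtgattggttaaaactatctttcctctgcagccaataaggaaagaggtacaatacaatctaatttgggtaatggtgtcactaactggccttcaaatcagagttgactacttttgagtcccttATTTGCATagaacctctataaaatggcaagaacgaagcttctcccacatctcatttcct

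Peaks lay most densely just upstream of start sites. From 0 to 500 bp upstream there were 133 pairs, or 266 per kb, and from 0 to 500 bp downstream 58 pairs, or 116 per kb. At 500 to 1000 bp the density was 42 pairs per kb upstream and 20 downstream, and beyond 1 kb it was between 11.2 and 32.7 per kb in every class on either side. Of all 395 pairs, 191 (48.4%) lay within 500 bp of the TSS, and the median distance without its sign was 565 bp.

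By side, 260 pairs were upstream, 134 downstream and 1 at the start itself, that of Hist1h2br. The upstream share was 65.8% (60.9 to 70.5%). Within 1 kb it was 69.4% of 222 pairs (62.9 to 75.4%), and from 1 to 5 kb it was 61.3% of 173 pairs (53.6 to 68.6%). The table's assignment rule bears on the second of these: it gives every gene 5000 bp upstream but only 1000 bp downstream by right, so a pair at 1 to 5 kb downstream comes through the extension or a curated domain, and a neighbouring gene's domain can cut the extension short. The Pank4 interval is a case, since it lies downstream of the Hes5 start yet was paired with Pank4 only. Counting each interval once, by its nearest TSS, left 67.2% of 189 intervals upstream within 1 kb (60.0 to 73.8%) and 45.5% of 123 from 1 to 5 kb (36.5 to 54.8%). The upstream side held the larger share within 1 kb under either count, and beyond 1 kb the larger side depended on the count. Within 1 kb the median position was 140 bp upstream by the midpoint and 136 bp upstream by the summit.

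**Figure D1:**
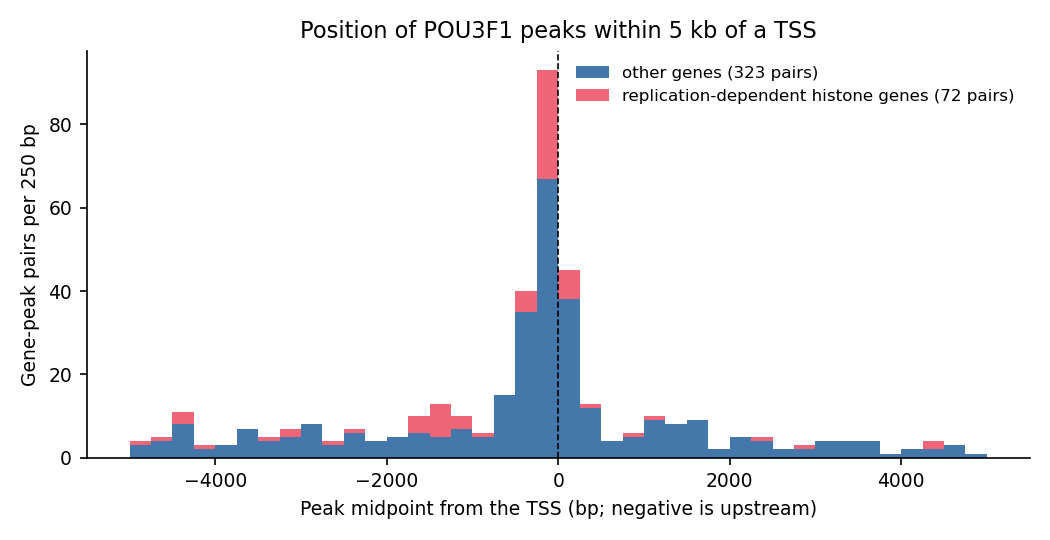
Histogram of the signed distance from TSS to peak midpoint (x axis, bp, negative upstream) for the 395 gene-peak pairs, in bins of 250 bp (y axis, pairs), with the 72 pairs of replication-dependent histone genes in red. The tallest bins stand just upstream of 0, where 133 pairs fall within 500 bp.

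Most member intervals belonged to 1 gene. There were 254 intervals paired with 1 gene name, 45 with 2 and 13 with 3 or more. From the gene side, 282 names had 1 pair, 39 had 2 and 11 had 3 or more. Of those 11, 5 were predicted genes at the start of chromosome 9 (Gm10715, Gm10717, Gm10719, Gm11168 and Gm17535), 5 were histone genes (Hist1h2ac, Hist1h2ae, Hist1h2bc, Hist1h3d and Hist1h3h), and the last was Pou2f1. Pairs that share an interval are not separate measurements.

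Intervals over a start site stood out within the set by width and height. The 102 intervals (32.7% of 312) that covered a paired TSS had a median width of 482.5 bp, a median fold over local background of 8.98 (the authors' value at the summit) and a median summit pileup of 43 fragments. The 87 intervals within 1 kb that did not reach the TSS had medians of 292 bp, 5.53-fold and 23 fragments. A wide interval reaches a TSS more easily, so the widths of these classes are in part set by how they were formed. From 1 to 5 kb, the 56 upstream intervals had medians of 348.5 bp, 5.90-fold and 16 fragments, and the 67 downstream ones 358 bp, 6.39-fold and 20 fragments. The local background was a median 3.08 fragments where a TSS was covered and 1.54 in both classes beyond 1 kb.

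As a whole, the 312 intervals had the same median width as the other 2340, 352 bp, and a median fold of 6.44 against 6.36. Their upper range was higher. At least 10-fold was reached by 75 members (24.0%, 19.4 to 29.2%), where 18.7% of all intervals did so, and at least 20-fold by 29 (9.29%, 6.31 to 13.1%), against 4.37% of all. At least 50-fold was reached by 12 members (3.85%, 2.003 to 6.62%) and by 6 of the other 2340, against 0.679% of all intervals. Of the 12, 10 covered a TSS. Intervals of at least 1000 bp numbered 18 (5.77%, 3.45 to 8.96%), against 3.7% of all. The extremes of width were the mitochondrial interval described below, Crlf2 (2161 bp) and Pank4 (1990 bp) at the wide end, and Hist1h2bb with Hist1h3c (196 bp), Arhgap35 (197 bp) and Prrx1 (199 bp) at the narrow end.

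**Figure D2:**
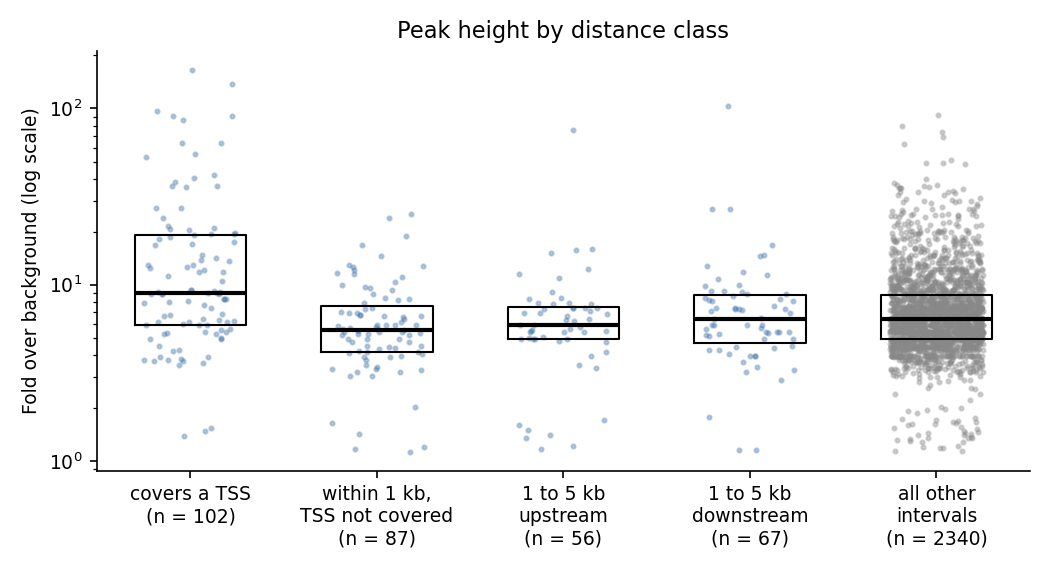
Fold over local background at the summit (y axis, log scale) of each interval, by distance class (x axis), with the 2340 other intervals in grey. Points are intervals, boxes span the quartiles and thick lines are medians, which run from 8.98 where a TSS is covered to 5.53 within 1 kb without covering it.

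Depth limited what many single members can carry. The summit pileup could be recovered for 297 of the 312 members, and in 117 of those (39.4%) it was under 20 fragments, down to 7. Among the other intervals the share under 20 fragments was 52.9% of 2318. Median pileup was 25 fragments in members and 18 in the others.

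The strongest members formed no single functional class. Crlf2, which encodes a subunit of the receptor for the cytokine TSLP, had the highest fold of all, 165.7 with a pileup of 682 fragments. Its interval, chr5:109556932-109559092, covered the TSS and had its summit 840 bp downstream. Plppr2, a gene of the phospholipid phosphatase-related membrane proteins, followed with 138-fold and 421 fragments at chr9:21936389-21937438, summit 175 bp upstream. Dlx1, a homeodomain factor of developing retina and forebrain, had 104-fold at chr2:71529465-71530259, with the summit 1741 bp downstream inside the gene body. A second interval of 9.33-fold lay over the TSS implied by the gene table. A RefSeq start of Dlx1 lay 1332 bp from that TSS, at base 71529445, just before the 104-fold interval. By the starts of the gene table, the main summits of these 3 loci thus lay on different sides of the start.

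The next intervals were mostly over promoters. Fbxo47, an F-box protein gene, had 96.9-fold and 544 fragments (chr11:97883817-97884734). Pank4, of the pantothenate kinase family, had 91.0-fold (chr4:154962911-154964900). The interval of the small GTPase gene Rras reached 90.8-fold (chr7:45017194-45018250) and was also paired with Scaf1, which faces the other way and starts 1359 bp from its midpoint; the pair of starts was too far apart to count as divergent below. Gtpbp1, a GTP-binding protein gene, had 86.1-fold and 572 fragments (chr15:79690237-79691183), an interval shared with the deubiquitinase gene Josd1. Tnks1bp1, named for binding tankyrase, was an exception in position, with 75.6-fold at chr2:85047209-85048527, 2592 bp upstream of the TSS.

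Genes of RNA polymerase II and its control held 3 of the 20 strongest intervals. Mepce, whose enzyme caps the 7SK RNA that holds back the elongation factor P-TEFb, had 64.1-fold (chr5:137786476-137787811), shared with Zcwpw1. Ell, an elongation factor of RNA polymerase II, had 54.9-fold and 452 fragments (chr8:70538532-70539719). Polr2a, the largest subunit of the polymerase, had 41.9-fold (chr11:69758560-69759458). All 3 intervals covered the TSS, with summits 417, 289 and 303 bp upstream. They were the only genes of that list with a peak within 5 kb, 3 of 53 (5.66%, 1.18 to 15.7%). Of 21900 protein-coding genes 1.43% had a peak within 5 kb, a share inside that interval.

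The rest of the 20 were Prrc2a, an RNA-binding protein gene (63.9-fold), Emc10 with Fam71e1 (53.2-fold), the stress-induced gene Gadd45a (40.5-fold), Cables2 (38.2-fold), Zfp428 (36.3-fold), Wwc2 (36.2-fold), the transmembrane collagen gene Col25a1 (35.9-fold), the neuropeptide gene Npvf and the recombination gene Swsap1 (both 27.3-fold). Each of these intervals covered a TSS. Their pileups ran from 73 fragments at Swsap1 to 423 at Prrc2a.

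**Figure D3:**
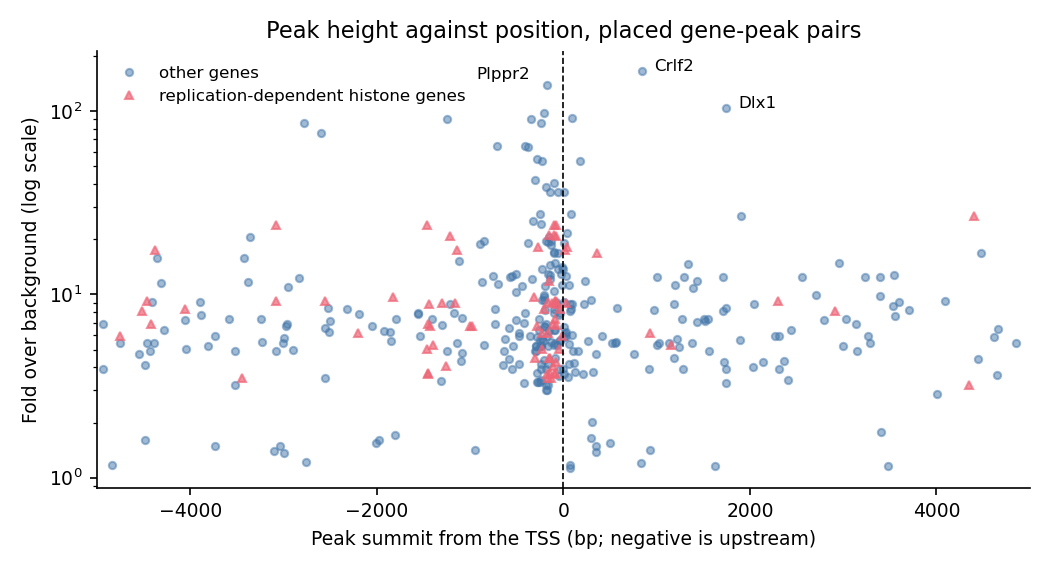
Fold over local background (y axis, log scale) against the position of the summit from the TSS (x axis, bp, negative upstream) for the placed pairs, with histone genes as red triangles; an interval paired with several genes appears once for each. The highest folds cluster within 500 bp of the TSS, Crlf2 and Dlx1 lie downstream, and the lowest group of points comes mostly from the start of chromosome 9.

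Replication-dependent histone genes, which supply histones to chromatin during DNA synthesis, were the most represented list. A peak lay within 5 kb of 15 of 18 H2A genes, 13 of 18 H2B genes, 11 of 12 H3 genes and 9 of 13 H4 genes, together 48 of 61 (78.7%, 66.3 to 88.1%). Over all protein-coding genes that share was 1.43%. Within 1 kb the counts were 15, 13, 8 and 3, together 39 of 61 (63.9%, 50.6 to 75.8%), where 0.927% of all protein-coding genes had a peak at that distance. Of the 5 linker histone H1 genes, Hist1h1a and Hist1h1d had a peak within 5 kb and none had one within 1 kb. The 72 histone pairs rested on 35 intervals, since these genes are packed closely and share them, and 58 of the 72 (80.6%) were upstream.

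The histone intervals were of moderate height, with a median fold of 7.35 (quartiles 5.13 and 9.47) and a median pileup of 35 fragments. The highest was 26.8-fold, 4423 bp downstream of Hist1h4d. Next came 23.9-fold between Hist1h2bf and Hist1h2ad, 21.0-fold at Hist1h2ac and Hist1h2bc, and 20.8-fold 137 bp upstream of Hist1h2ab. Of the H4 genes, Hist2h4, Hist1h4c and Hist1h4a had a midpoint within 1 kb, at 22 bp and 215 bp downstream and 174 bp upstream. The other 6 H4 genes were paired with peaks more than 1 kb away, 4 of them (Hist1h4n, Hist1h4m, Hist1h4k and Hist1h4b) on intervals that lay nearer to an H2A, H2B or H3 start. Histone genes of the same class have similar coding sequences, and how reads that fit several copies were assigned is not given in the sources used here.

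Pairs of divergent genes with starts at most 1000 bp apart shared 25 intervals (8.01% of 312, 5.25 to 11.6%), covering 23 gene pairs. The share of divergent pairs over all genes was not computed, so this share cannot be read as high or low. The starts were a median 251 bp apart (30 to 987 bp), and 21 of the 25 intervals reached into the span between them. The other 4 lay beyond both starts: 1 at Plcd3 and Acbd4, 1 at Thap2 and Zfc3h1, and 2 at Hist1h2ac and Hist1h2bc. Median fold was 8.84.

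Histone genes made up 12 of the 25, and each of the 12 joined an H2A gene with an H2B gene. How divergent histone pairs are composed over the whole genome was not counted. At Hist1h2bf and Hist1h2ad, whose starts are 185 bp apart, the midpoint lay 45 bp and 140 bp before them. At Hist1h2ae and Hist1h2bg it lay 128 bp and 48 bp before starts 176 bp apart, with 9.22-fold; the sequence of Hist1h2bg above is the strand read from this shared promoter. The Hist2h2ac and Hist2h2be interval reached 18.2-fold.

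The other 13 divergent intervals joined genes outside the histone families. Emc10, a subunit of the ER membrane complex, and Fam71e1 start 52 bp apart and had the highest fold of the 25, 53.2. Btf3l4 and Txndc12 had 19.6-fold. Their starts were 987 bp apart by the gene table, and the RefSeq start of Btf3l4 lay 689 bp from the implied one. Cryzl1 and the endocytic scaffold gene Itsn1 had 19.1-fold, and Dpysl2, which encodes the axonal protein CRMP2, had 16.7-fold with Gm5464. Fam219a with the dynein chain gene Dnaic1 had 13.7-fold, and Cdca2 with Kctd9 had 11.1-fold. The midpoint lay between the starts in 14 of the 25 intervals.

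**Figure D4:**
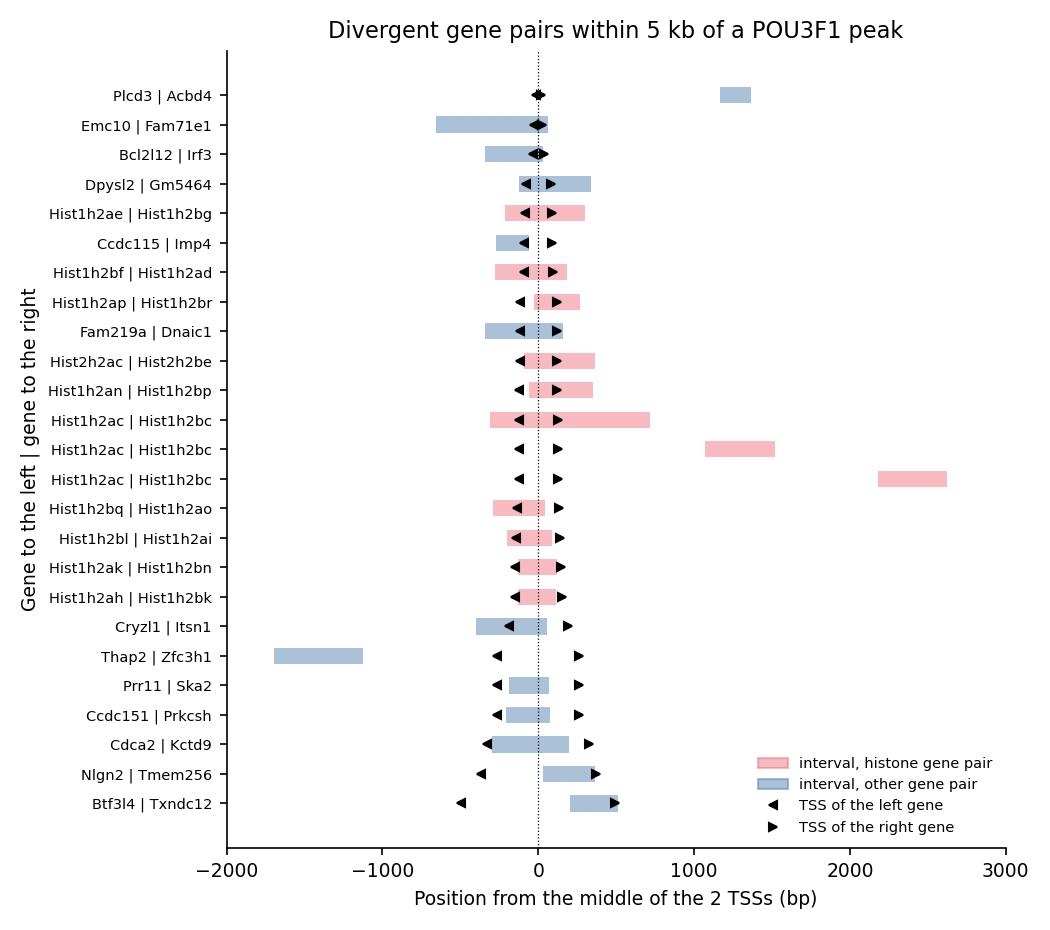
Each of the 25 intervals (bars) on an axis centred between the divergent starts (x axis, bp), with the leftward and rightward TSS as black triangles; histone pairs are red. In 21 intervals the bar reaches into the span of the starts, and in 4 it lies outside.

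Genes that run retinal neurogenesis had members of every height. Of the Notch pathway, through which neighbouring cells hold each other back from differentiating, 3 of 32 genes had a peak (9.38%, 1.98 to 25.02%). The share over all protein-coding genes was 1.43%. The interval over the TSS of Hes5, a repressor that Notch switches on, had 20.4-fold and 198 fragments (chr4:154960463-154961039), with another of 8.41-fold 2441 bp upstream. The ligand gene Dll1 had 12.1-fold over its TSS (chr17:15375723-15376341), and the receptor gene Notch1 had 7.33-fold 3036 bp downstream. So 2 of the 3 carried a peak at the promoter itself.

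Among proneural and other bHLH factors, 6 of 43 genes had a peak (13.95%, 5.30 to 27.9%), where 1.43% of all protein-coding genes had one. Neurog1 had 19.3-fold at 156 bp upstream with 48 fragments, and Neurog2, which like it starts neuronal differentiation, had 12.05-fold at 412 bp upstream. Bhlhe22, a factor of amacrine cells, had 5.39-fold at 42 bp and 16.9-fold at 4430 bp downstream. Neurod4 had 5.58-fold at 1873 bp upstream, resting on 13 fragments, and Mxd4 had 9.64-fold at 302 bp upstream.

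Of the retinal progenitor and eye field list, 9 of 45 genes had a peak (20%, 9.58 to 34.6%), where 1.43% of all protein-coding genes had one. Pax6, the eye field regulator, had 11.4-fold with its midpoint 665 bp upstream of the TSS used by the table, inside the RefSeq gene body. Sox2 had 1 interval on each side, 7.24-fold at 3983 bp upstream and 8.69-fold at 3448 bp downstream. Insm1 had 15.9-fold at 3432 bp upstream, Dach1 15.7-fold at 4296 bp upstream, and Fgf15 7.397-fold at 1098 bp upstream. Most of these lay outside the first kb: 4 of the 9 genes had a peak within it.

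Retinal ganglion cell identity genes had a peak in 4 of 42 (9.52%, 2.66 to 22.6%), and only Dlx1 had one within 1 kb. Pou4f2, the BRN3B factor of ganglion cells, had 10.9-fold at 2788 bp upstream with 22 fragments. Barhl2 had 7.59-fold at 3606 bp downstream and Irx6 7.37-fold at 3209 bp upstream. None of 21 genes listed for contralateral or ipsilateral ganglion cells had a peak within 5 kb, and a count of 0 of 21 leaves an upper limit of 16.1%, above the 1.43% of all protein-coding genes.

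POU genes were paired in 3 of 15 (20%, 4.33 to 48.1%), Pou2f1, Pou6f1 and Pou4f2. Pou2f1 had 3 intervals, at 1534 bp upstream (7.78-fold), 127 bp downstream (8.82-fold) and 1448 bp downstream (7.33-fold). Pou6f1 had 14.2-fold over its TSS. In other transcription factor families a peak was found at 6 of 141 homeobox genes outside POU (4.26%, 1.58 to 9.03%), 3 of 44 forkhead genes (6.82%, 1.43 to 18.7%), 1 of 19 SOX genes (5.26%, 0.133 to 26.03%) and 5 of 367 Zfp genes (1.36%, 0.444 to 3.15%). The share over all protein-coding genes was 1.43%, and the intervals of the POU, forkhead, SOX and homeobox shares overlap. The 3 forkhead genes were Foxp1, Foxb2 and Foxd3, all with peaks beyond 1 kb and under 6-fold.

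The axon guidance, neural adhesion, WNT and FGF, and cell cycle lists had between 3 and 4 genes each with a peak within 5 kb. Their shares were 2.56 to 4.65%, where 1.43% of all protein-coding genes had one. The exact interval of each share includes 1.43%, so none of these lists can be told apart from all protein-coding genes. Other lists had shares under 1.43%, among them splicing and RNA-binding proteins (0.546%), solute carriers (0.8%) and mitochondrial proteins (0.957%). The intervals of these shares include 1.43% too. Of 80 axon guidance genes, 3 had a peak (3.75%, 0.780 to 10.6%): Ephb4 (25.2-fold, 330 bp upstream), Slit1 (6.87-fold, 2876 bp upstream) and Epha3 (5.40-fold, 1513 bp downstream). Of 103 neural adhesion genes, 4 had one (3.88%, 1.07 to 9.65%), led by Cadm1 with 21.5-fold over its TSS and 153 fragments. WNT and FGF genes had 4 of 86 (4.65%, 1.28 to 11.5%), with Tcf7l2 at 13.0-fold, 43 bp upstream. Cell cycle genes had 3 of 117 (2.56%, 0.532 to 7.31%), with E2f3, a driver of S-phase entry, at 14.8-fold.

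Of the 38 lists, 7 had no gene with a peak within 5 kb. These were the 86 cytosolic ribosomal proteins (upper limit 4.20%), the 71 translation factors (5.06%), the 100 motor and tubulin genes (3.62%), the 29 KLF and SP factors (11.9%), the 30 endothelial, blood and microglial genes (11.6%), the 39 liver, muscle and gut genes (9.03%) and the contralateral and ipsilateral list above. Each of these upper limits lies above the 1.43% of all protein-coding genes, so none of the 7 lists can be told apart from it. Of pigment epithelium and lens genes, 1 of 30 had one, Dct at 8.35-fold with 16 fragments. In all, 129 listed genes had a peak, and 185 of the 314 protein-coding members were in no list. The lists were chosen with earlier results of these data known and share genes, so their counts are descriptions.

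The octamer was searched on both strands in RefSeq promoter windows of 300 bp, 250 before and 50 from the start on. It was present in 299 of 17492 windows of protein-coding genes, 1.71%. Of the 314 protein-coding members, 256 had a window, and 39 of those held it (15.2%, 11.1 to 20.2%). Windows under an interval held nearly all of these. Of 146 member windows that an interval overlapped, 145 of them protein-coding, 37 held the octamer (25.3%, 18.5 to 33.2%), against 2 of the 111 that none overlapped (1.80%, 0.219 to 6.36%). Without histone genes the overlapped share was 27 of 112 (24.1%, 16.5 to 33.1%). Median GC content was 57.2% in the overlapped windows, 60% in those without histone genes and 56.3% in all.

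Counting each interval once, 34 of the 128 intervals over a window lay over one with an octamer, inside the interval or beside it (26.6%, 19.1 to 35.1%). Their median fold was 13.3 (quartiles 6.29 and 20.5), against 7.27 (5.21 and 12.7) for the 94 over windows without one. Of intervals of at least 10-fold, 18 of 48 lay over a window with it (37.5%, 24.0 to 52.6%). Of those under 10-fold 16 of 80 did (20%, 11.9 to 30.4%), and the intervals of these shares overlap. At Aldh1a7, Med16 and Orai1, all under 10-fold, the octamer lay in the window but outside the interval. For the distance to the summit, only the part of an interval covered by a promoter window was searched, and distances of other words were not computed. In 31 intervals an octamer lay in that part. The middle of the nearest was a median 52 bp from the summit, within 100 bp in 27 of the 31. At Gadd45a it lay 12 bp from the summit, at Plppr2 and Wwc2 13 bp, and at Neurog1 21 bp. At Prrc2a the octamers found lay 223 and 315 bp from the summit. That summit lies outside the promoter window, so the sequence around it was not searched.

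Repeated octamers were rare in the table: 18 promoters of the whole table held 2 or more, and 10 of them lay under a member interval. Beside Plppr2, Prrc2a, Gadd45a, Cables2 and Zfp428, printed above, these were E2f3, Abtb2, Pim2, Atf7ip and Zfp263, the last with 3.18-fold. In histone members, windows with an octamer numbered 6 of 15 for H2A and 4 of 11 for H2B, and none of 9 for H3, 8 for H4 or 2 for H1. All of the H2A and H2B windows lay under an interval, but only some of the H3 and H4 windows and neither H1 window did. The octamer is a long-known element of H2B promoters. Where an H2A and an H2B gene share a divergent promoter their windows can hold the same copy, as at Hist1h2ae and Hist1h2bg.

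Of the 13 motifs searched, the related word ATGCTAAT was in 16 of 146 overlapped windows (11.0%, 6.40 to 17.2%), against 0.812% of all. The CCAAT box (CCAAT) was in 67.1% of overlapped windows, 57.1% of those without histone genes and 39.0% of all. The GC box (GGGCGG) was in 65.8%, 78.6% and 46.3% of the same windows. The TATA box (TATAAA) was in 27 of the 45 windows of histone members (60%), counted whether or not an interval overlapped them. It was in 8.93% of the overlapped windows of other genes, against 13.3% of all. The ETS word CCGGAAG was in 5.48% of overlapped windows, with none in the 45 histone windows, and in 11.9% of all; without histone genes its share was 7.14% (3.13 to 13.6%), an interval that includes the share of all. The NRF1 palindrome was in none of 146 (upper limit 2.49%) and in 1.32% of all, which lies under that limit. A match says only that these letters are in the window. Windows of the same gene pair can overlap and share matches.

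**Figure D5:**
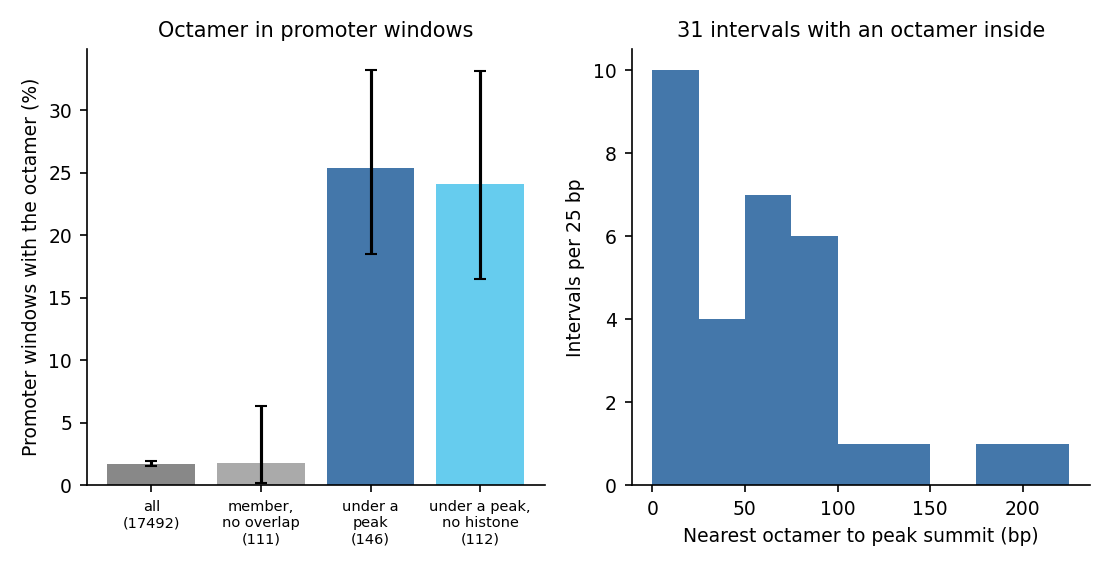
Left, the percentage of promoter windows with the octamer (y axis, bars with exact 95% intervals) in all protein-coding genes, in member windows no interval overlaps, in those under an interval and in these without histone genes; numbers of windows are below. Right, the distance from the summit to the nearest octamer inside the interval (x axis, bp) in 31 intervals (y axis, intervals per 25 bp). Of these, 27 lie within 100 bp, and only the parts covered by a promoter window were searched.

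A few members are of another kind. At the start of chromosome 9 (chr9:3000332-3038170), 17 intervals formed 21 pairs with 7 predicted genes, and their folds were 1.13 to 2.03. Where it could be recovered (4 of 17), the local background there was 1072 to 5910 fragments, against a median of 2.22 over all members. Gm21738 on chromosome 14 had 2 intervals of 1.16-fold and 1.18-fold. A single interval of 16276 bp covered nearly the whole mitochondrial sequence at 12.4-fold and was paired with 7 mitochondrial genes. Without these 20 intervals, the 292 others had a median fold of 6.80. Small RNA genes also lay under members: Rnu3a under the interval paired with Gtf3c6, Rnu11 under that of Taf12, and Snord118 under that of Tmem107, with 8.29, 4.13 and 7.24-fold; these were named after their values were seen.

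At the edge of the rule, the pairs just inside were Gm17535 at 4993 bp upstream (1.17-fold), Cln6 at 4971 bp upstream (6.88-fold) and Tcf7l2 at 4887 bp downstream (5.40-fold). Just outside were Lmo1 at 5022 bp upstream with 19.8-fold, Sltm at 5038 bp downstream with 4.74-fold and a second interval of Pou6f1 at 5121 bp upstream with 4.91-fold. A RefSeq start of Lmo1 lay 4630 bp from the implied one, at base 109175149. The 19.8-fold interval begins at base 109175264, so it lies close upstream of that RefSeq start.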

How the data were processed

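CUT&RUN data of 1 POU3F1 library were described; per the submitters' processing notes Bowtie2, MACS2 and deepTools were used on mm10, with versions not given in the sources used here, nor whether IgG served as control. The deposited peak list gives, per interval, the authors' fold ratio over local background and the −log10 of the p-value and q-value at the summit, with a deposited score that was not used; the highest q was 0.0449. Per the file headers the gene table was made with GREAT 4.0.4 (5000 bp upstream, 1000 bp downstream, up to 1000000 bp extension, curated domains included), and its distances are signed, in bp.

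Distances were placed on peak midpoints (tolerance 1 bp) by the TSS and strand that put most of a gene's distances on midpoints, at most 10000 bp outside the RefSeq gene body; a rival within 500 bp made a placement ambiguous. Of 332 names, 259 matched RefSeq by symbol, 59 by synonym and 14 not at all. The implied TSS lay a median 11 bp from a RefSeq start, within 100 bp in 80.9% of 319. Summit pileup was solved from the fold, (pileup + 1) / (background + 1), and the Poisson p-value, within 0.001 in −log10 p or 2e-05 of its value, for 2615 of 2652 intervals (98.6%). Library depth is unknown from these files, and coordinates count from 1. Placement, recovery and the motif search were tested on simulated data. Python 3.11.15, pandas 2.3.3 and scipy 1.17.1 were used.

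Genes named are those of the 20 highest folds, the 3 widest and narrowest intervals, the 3 pairs on each side of the limit, genes with 3 or more pairs, the 10 strongest divergent promoters and up to 6 members per list. Members, lists and this rule were chosen with earlier results of these data known; the placement and pileup settings were set after seeing the files. List sizes count RefSeq protein-coding genes, since GREAT's own gene set is not given. Promoter windows were found for 257 of 332 names (77.4%), under 80%, so no octamer share is given over all names. Shares are given over the protein-coding members with a window, or over the member windows that an interval did or did not overlap. Exons were not used here. Rnf26, which fills 2 rows of the table, was counted as 1 name.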

Additional observations from a re-analysis of the deposited data

How the results depend on the processing

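For 11 main values, 85 alternatives were computed; 74 stayed within 1.5 times of a count or within the 95% interval of a share or median. A limit of 1000 bp gave 222 pairs, 217 genes, 189 intervals, 84 listed genes and a median pileup of 33, fewer members by construction. The upstream share was 47.2% when distance was taken to the nearest edge, because 117 pairs whose interval covers the TSS then sit at 0; of pairs not at 0, 67.0% were upstream. In that setting the median distance was 319.5 bp. With 1 pair per interval the upstream share was 58.7%. With starts from the RefSeq table, nearest start per gene, it was 80.6% of 191 pairs within 1 kb and 53.1% of 162 beyond; the cause was not tested. Divergent promoters numbered 13 without histone genes, and 19 or 36 with a spacing of 500 or 2000 bp. The octamer share was 25.5% in overlapped windows of protein-coding genes and 9.38% on the coding strand alone, where fewer matches can be found. Leaving out the start of chromosome 9, Gm21738 and the mitochondrial interval was chosen after seeing the data and gave medians of 346.5 bp, 6.80-fold and 24 fragments and an upstream share of 66.8%. Of 266 list counts under alternatives, 240 stayed within 1.5 times. No paired analysis was possible because there is 1 library per antibody and no test. Low pileups limit what single members show.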
